A study of Mus musculus with 11 samples.

Results

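The genes described here encode the enzymes that build the sugar chains of mucins and of N-glycosylated proteins. They were chosen by symbol: every gene whose name on the array begins with Galnt, Gcnt, B3gnt, B3gal, B4gal, Fut followed by a digit, St3gal, St6gal, Mgat, Man1, Man2, Chst or Alg followed by a digit. The array named 117 such genes. Of these, 58 had a probe above background (a detection p under 0.01, the share of negative control beads at least as bright) on 5 or more of the 11 arrays, and these 58 were tested among 8234 genes in all.

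RNA came from isolated villi of the small intestine of C57Bl/6J mice aged 5 months, with 1 Illumina bead array per sample. The 5 Villin-Gremlin samples carry a transgene in which the villin promoter, active in the gut epithelium, drives Gremlin, a secreted protein that binds and blocks bone morphogenetic proteins. The 6 wild type samples come from mice of the same strain and age without the transgene. Whether every sample is its own mouse is not stated in the labels; the p-values therefore rest on the scatter among these samples, part of which may be technical.

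Mucins are the gel-forming glycoproteins of goblet cells, and most of their mass is O-linked sugar. A Galnt enzyme attaches the first sugar, N-acetylgalactosamine (GalNAc), to serine or threonine; core, branching and extending enzymes lengthen the chain; and fucose, sialic acid or sulfate cap it. N-glycans start differently: Alg enzymes assemble a precursor on the lipid dolichol at the endoplasmic reticulum, the precursor is moved as a whole onto asparagine, mannosidases trim it, and Mgat enzymes begin the branches that galactosyl-, fucosyl- and sialyltransferases then complete.

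The transgene was seen in the data. Grem1 had a normalized log2 signal of 13.95 ± 0.14 in Villin-Gremlin villi (SD, n = 5) and 6.10 ± 1.51 in wild type villi (SD, n = 6), and was above background on 5 of 5 and 2 of 6 arrays. Median raw signal ran between 156.7 and 207.2 over the arrays, and 13536 to 14808 of 45281 probes were above background. The arrays Villin-Gremlin 5 and wild type 1 stood apart from the rest on the second principal component, at -27.83 and -27.85. The epithelial gene Vil1, encoding villin itself, averaged 14.24 in Villin-Gremlin and 14.58 in wild type villi and was itself among the genes called lower (-0.34 ± 0.11, adjusted p = 0.033). The probes of Fabp1 and Fabp2, abundant lipid-binding proteins of enterocytes, were above background on no array, so a dim probe on this platform does not show that the RNA is missing. Of the 9 tested T cell and intraepithelial lymphocyte markers, 8 were lower in Villin-Gremlin villi. The mean log2 signal of these markers lay between 7.77 and 8.74 on Villin-Gremlin arrays and between 9.74 and 10.65 on wild type arrays, and Cd8a, Cd2 and Gzmb were above background on no array. Macrophage and dendritic cell markers were lower in 2 of 3, tuft cell markers in 4 of 6 and enterocyte markers in 4 of 8 cases. Of the crypt stem cell and cycling markers 3 of 4 were higher, namely Top2a, Pcna and Sox9. The stem cell marker Olfm4 did not differ (-0.01 ± 0.78, adjusted p = 0.991), and Lgr5 and Ascl2 were above background on no array. Of all 8234 genes tested, 16% were called lower and 17.9% higher. Villi are a mixture of cells, and in a bulk sample fewer cells of a type and less RNA per cell cannot be told apart. The part of these cell types in the results below was not tested.

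The promoters of 5 genes that recur below are shown first, and each has a single annotated start. They belong to the sulfotransferase and sialyltransferase genes with the clearest RNA changes and to Alg8 and Alg5. These are the genes called higher among those for the glucose steps of the N-glycan precursor. Each sequence is the 250 bases before the annotated start, 5′ to 3′ on the gene's own strand, from RefSeq on the mouse build GRCm38.p6, and lies upstream of the transcribed part of its gene. Capitals mark the palindrome GGCGCC where it occurs. The Chst4 window is chr8:110039335-110039584 (minus strand), that of St3gal3 chr4:118134947-118135196 (minus), that of St3gal4 chr9:35116865-35117114 (minus), that of Alg8 chr7:97371367-97371616 (plus) and that of Alg5 chr3:54735289-54735538 (plus).
Chst4: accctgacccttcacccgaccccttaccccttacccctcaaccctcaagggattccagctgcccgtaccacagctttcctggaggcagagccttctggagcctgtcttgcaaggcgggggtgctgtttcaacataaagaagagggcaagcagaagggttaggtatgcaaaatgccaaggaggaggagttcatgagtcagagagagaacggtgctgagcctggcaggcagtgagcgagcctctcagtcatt
St3gal3: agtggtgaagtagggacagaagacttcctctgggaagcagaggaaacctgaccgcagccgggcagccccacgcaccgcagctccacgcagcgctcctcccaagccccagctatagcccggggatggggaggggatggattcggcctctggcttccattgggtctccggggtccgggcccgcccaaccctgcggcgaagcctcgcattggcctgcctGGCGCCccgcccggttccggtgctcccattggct
St3gal4: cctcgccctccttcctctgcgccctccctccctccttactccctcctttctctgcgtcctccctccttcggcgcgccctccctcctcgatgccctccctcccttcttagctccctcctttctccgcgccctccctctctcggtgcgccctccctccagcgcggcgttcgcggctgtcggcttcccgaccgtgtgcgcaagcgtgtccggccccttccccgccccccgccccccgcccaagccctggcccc
Alg8: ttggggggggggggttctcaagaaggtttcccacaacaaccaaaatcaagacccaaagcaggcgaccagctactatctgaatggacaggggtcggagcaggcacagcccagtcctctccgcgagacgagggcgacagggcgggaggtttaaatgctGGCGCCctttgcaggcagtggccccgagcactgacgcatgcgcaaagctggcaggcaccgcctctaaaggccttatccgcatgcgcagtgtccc
Alg5: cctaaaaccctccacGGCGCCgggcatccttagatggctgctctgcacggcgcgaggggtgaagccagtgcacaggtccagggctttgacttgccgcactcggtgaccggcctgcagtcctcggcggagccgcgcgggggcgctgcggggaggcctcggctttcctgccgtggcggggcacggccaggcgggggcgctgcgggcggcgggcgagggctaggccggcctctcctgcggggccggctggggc

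Bone morphogenetic proteins signal through Smad proteins, and GGCGCC is a sequence that Smad proteins can bind. It occurred in the windows of St3gal3, Alg8 and Alg5 and not in those of Chst4 and St3gal4. Of the 42 tested glycosyltransferase genes with a RefSeq promoter entry, 11 held it, among them 4 of 12 higher genes and 2 of 6 lower genes, and so did 9.59% of all 32851 promoter windows of this length and 13.9% of protein-coding genes. Of the 9 Alg genes with an entry 2 held it, the 2 shown here. TGACGTG, read on both strands and related to the sites of stress-response factors, was found for B3gntl1 alone. That is 1 of 42 genes, against 1.65% of all windows and 2.08% of protein-coding genes. The endoplasmic reticulum stress element, also read on both strands, was found for Alg12 alone. That is 1 of 42, against 0.113% of all windows and 0.154% of protein-coding genes. A match is only a run of letters in the window, and none was tested as a binding site.

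Across the 58 genes, 22 changed in Villin-Gremlin villi: 14 were higher and 8 lower (limma, Benjamini-Hochberg adjusted p under 0.05 over all 8234 genes). That is 37.9% of the glycosyltransferase genes, beside 33.9% of all genes tested, so the count was close to the background of a transcriptome in which about 1 gene in 3 differed. The background was 17.9% for higher and 16% for lower calls. The largest increases were those of Chst4, a sulfotransferase, St3gal3, a sialyltransferase, and B3galt5, a galactosyltransferase, and the largest decreases those of St3gal4, B4galt5 and Gcnt1, which act in sialylation, galactosylation and O-glycan branching. These 6 differed by at least 2-fold after background correction, as did 10.1% of all genes. Only Chst4 and St3gal4 among them were above background on all arrays, and without background correction the other 4 were under 2-fold, as given further on. The groups did not overlap in 8 of the 58 genes, against 20.5% of all genes. The median log2 change was 0.20 over the 58 genes and -1e-04 over all genes.

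A gene can pass the rule of 5 arrays through the group in which it is higher. Of the 9 glycosyltransferase genes that were above background on only some arrays 8 were called, beside 521 of 1317 such genes in all (39.6%), and nothing is read from this count. Of the 49 genes above background on all 11 arrays, 14 were called, 10 higher and 4 lower, which is 28.6% beside 32.8% of all genes measured that well. With the arrays scaled by their median in place of quantile normalization, 13 of the 58 were called, 6 higher and 7 lower, beside 919 higher and 1217 lower among all genes, where the quantile-normalized values gave 1476 and 1316. Without the arrays Villin-Gremlin 3 and 5, which stand apart for several genes described below, 12 were called, 5 higher and 7 lower. That is 20.7%, beside 28% of all genes. A subset of 9 genes, Chst4, St3gal3, St3gal4, Gcnt1, Galnt3, Mgat3, B4galt5, Man1a and Alg8, kept an adjusted p under 0.05 in every alternative in which the gene was tested, out of 24 run. Chst4, St3gal4 and Mgat3 were tested in all 24. The others were tested in 23, because they were left out of the run limited to probes above background on all arrays. Each of these others was above background on every array of its higher group and on only some of its lower group. Nothing more is read from their passing. Runs with arrays left out kept the same probes, so the rule of 5 arrays was not applied anew.

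**Figure D1:**
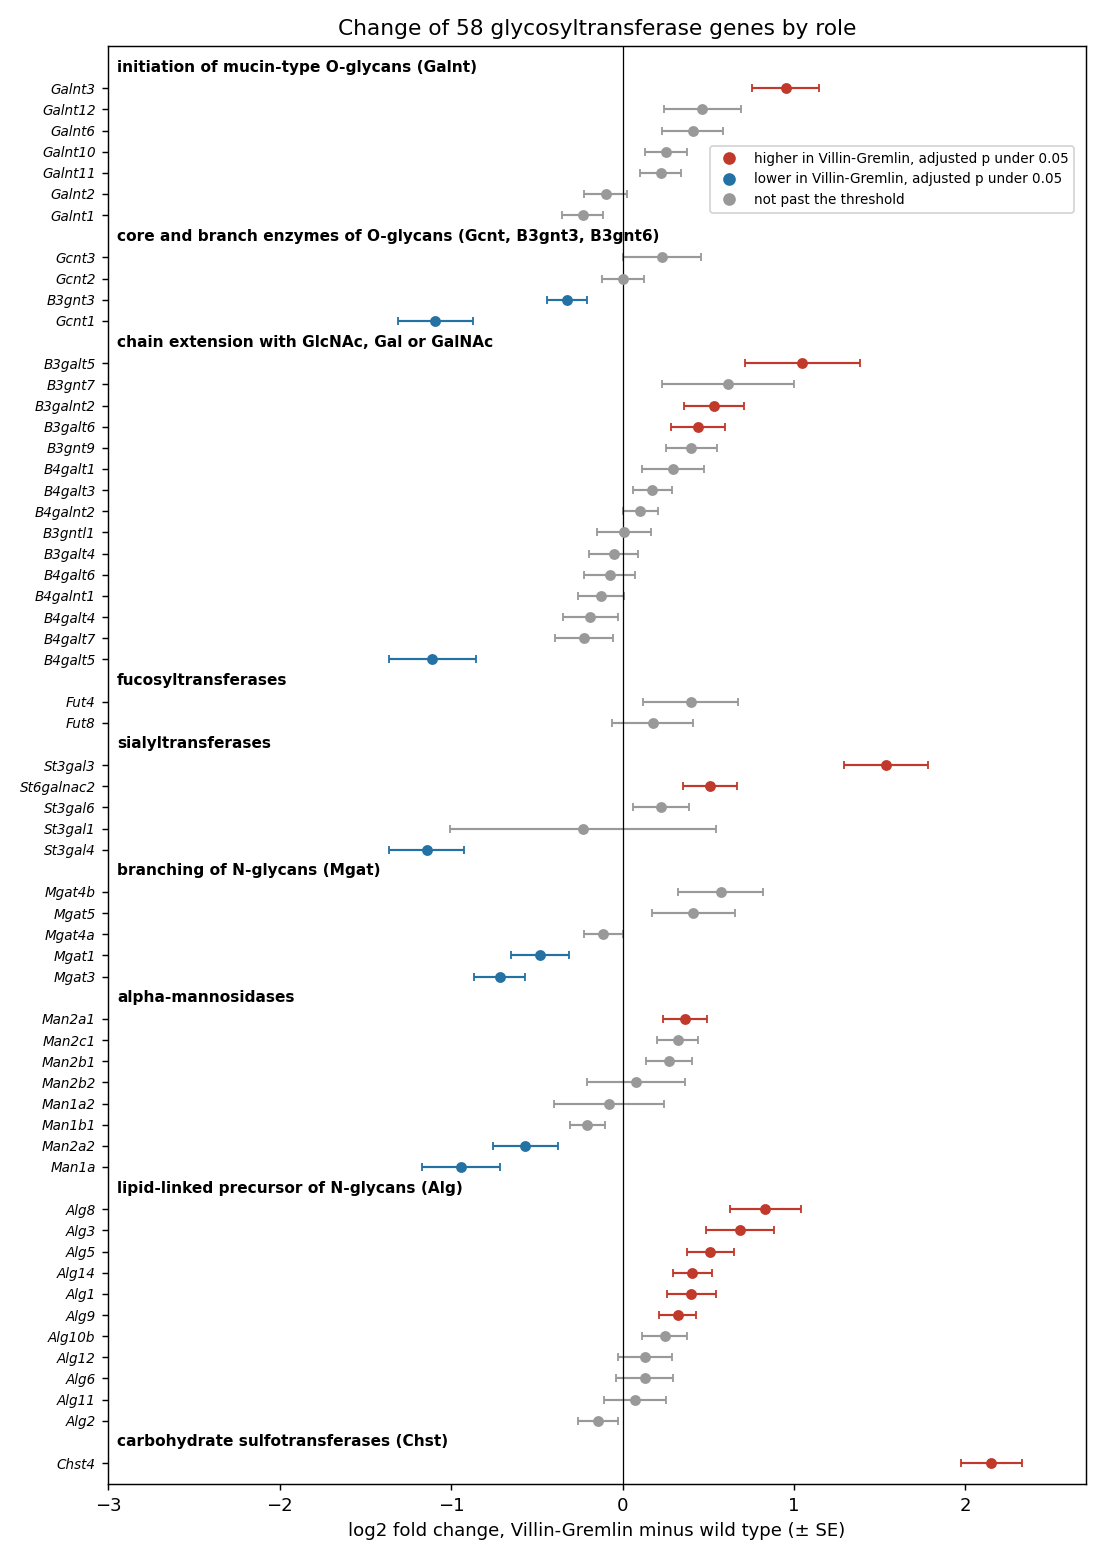
Log2 fold change (x axis, Villin-Gremlin minus wild type, bars ± SE) of the 58 glycosyltransferase genes, grouped by role down the page. Red points are the 14 genes higher and blue points the 8 genes lower in Villin-Gremlin at an adjusted p under 0.05; Chst4, at 2.15, lies farthest from 0, and 6 of the 11 Alg genes are red while none is blue.

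The largest RNA change of the 58 genes was that of a sulfotransferase gene, while sulfation itself was not measured. Chst4 encodes an N-acetylglucosamine 6-O-sulfotransferase that sulfates mucin-type glycans. Its log2 signal was 10.86, 11.07, 11.25, 10.83 and 11.56 on the 5 Villin-Gremlin arrays, and 8.47, 9.02 and 9.26 (lowest, median, highest) on the 6 wild type arrays. Every Villin-Gremlin array lay above every wild type array, by more than 1 log2 unit. The difference was 2.15 ± 0.18 (SE), a 4.44-fold higher signal (adjusted p = 4.75e-06), and the other probe of the gene gave 2.38. The change lay between 1.85 and 2.27 over the alternatives. Chst4 was the only tested gene of 14 Chst genes on the array: Chst8 was above background on 1 of 5 Villin-Gremlin and 3 of 6 wild type arrays, and Chst5, another enzyme of intestinal mucin sulfation, on none.

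The sialyltransferases, which cap chains with sialic acid, changed in both directions. Of 5 tested genes 2 were higher and 1 was lower, beside 17.9% higher and 16% lower among all genes. St3gal3 had log2 signals of 7.17, 7.96, 6.83, 6.88 and 8.06 on the Villin-Gremlin arrays, and 5.39, 5.91 and 6.20 (lowest, median, highest) on the wild type arrays. The groups did not overlap, and the probe was above background on 5 of 5 Villin-Gremlin but only 2 of 6 wild type arrays. The difference was 1.54 ± 0.25 (adjusted p = 0.000448), or 2.90-fold higher. St3gal4, whose product attaches sialic acid to galactose in the same kind of linkage, was lower. Its values were 12.64, 12.50, 12.17, 12.68 and 11.46 on the Villin-Gremlin arrays, and 13.21, 13.31 and 13.98 on the wild type arrays. Again no array of one group reached the other, and Villin-Gremlin 5 was the lowest. The difference was -1.14 ± 0.22 (adjusted p = 0.00158), 2.21-fold lower in Villin-Gremlin villi.

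St6galnac2, which adds sialic acid to the GalNAc of O-glycans, was higher by 0.51 ± 0.16 (adjusted p = 0.0236), with 11.40 to 11.93 in Villin-Gremlin and 10.64 to 11.36 in wild type villi. Its other probe gave -0.08, and leaving out Villin-Gremlin 2 ended its call (adjusted p = 0.0619). St3gal6 differed by 0.22 ± 0.16 and did not pass (adjusted p = 0.325). St3gal1, which sialylates core 1 O-glycans, is described further on because its Villin-Gremlin arrays fell far apart. St6gal1, which puts sialic acid on N-glycans, narrowly missed the rule, being above background on 0 of 5 Villin-Gremlin and 4 of 6 wild type arrays.

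**Figure D2:**
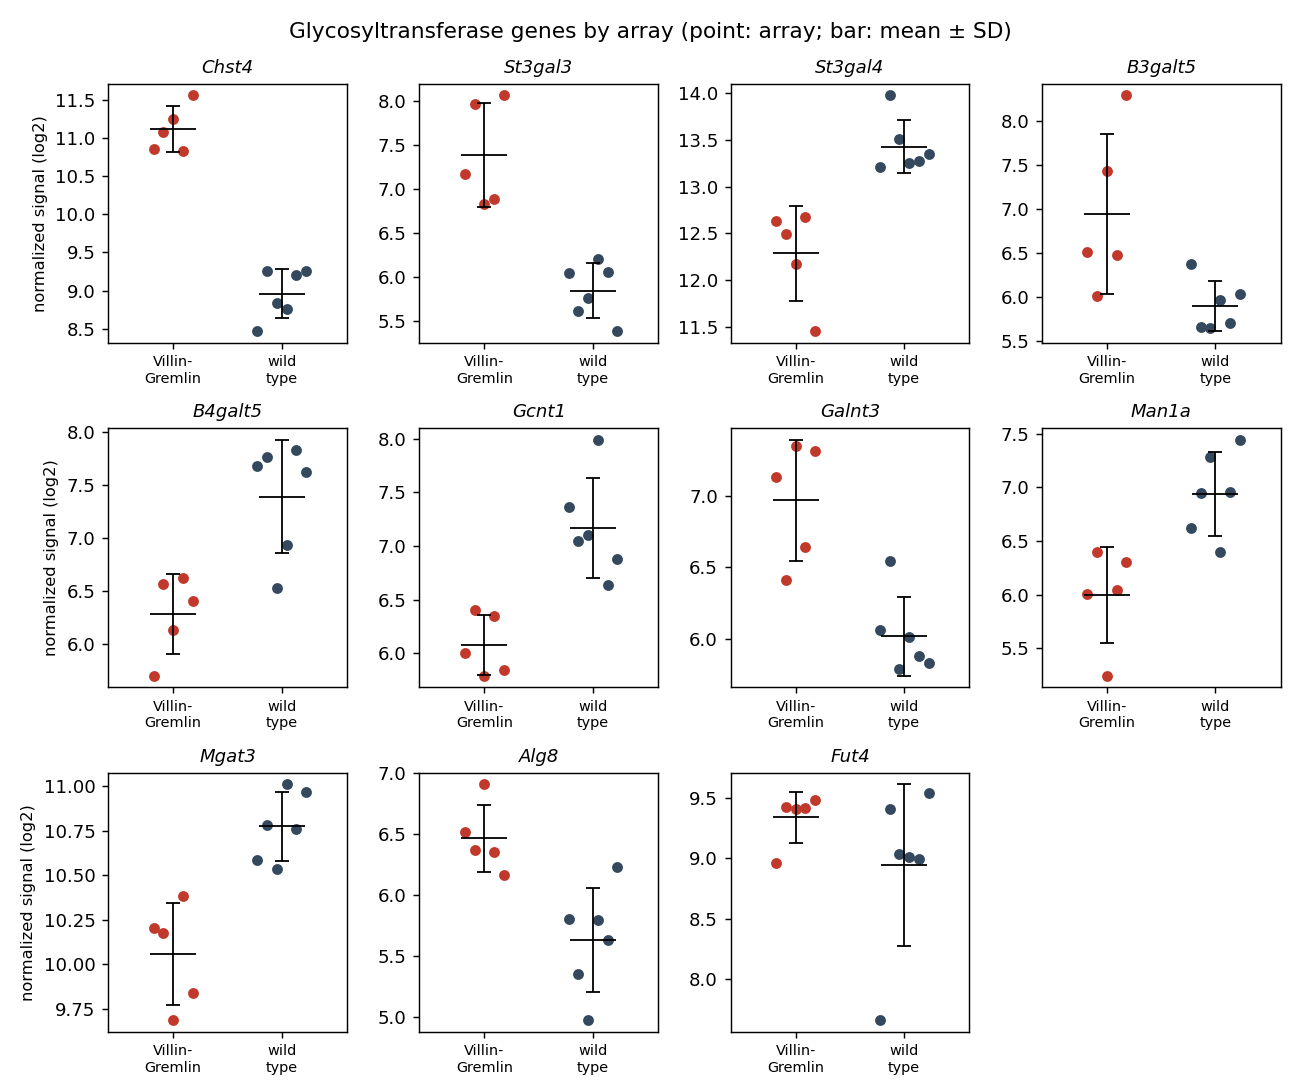
Normalized log2 signal (y axis, own range in each panel) of 11 genes on each array, Villin-Gremlin (5 points) left and wild type (6 points) right, with mean ± SD as bars. The groups are separate for Chst4, St3gal3, St3gal4, Gcnt1, Man1a and Mgat3, and overlap for B3galt5, B4galt5, Galnt3, Alg8 and Fut4.

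Among the genes that initiate mucin-type O-glycans 1 was called: of 7 tested Galnt genes 1 was higher and none was lower. That is 14.3%, beside 33.9% of all genes. That gene was Galnt3, with log2 signals of 7.13, 6.41, 7.35, 6.64 and 7.32 on the Villin-Gremlin arrays, and 5.79, 5.95 and 6.54 on the wild type arrays. The groups overlapped through a single array, wild type 2, the highest of its group. The difference was 0.95 ± 0.20 (adjusted p = 0.00248), 1.93-fold higher, with 0.78 from the other probe. Galnt1 and Galnt2, broadly expressed members of the family, differed by -0.23 ± 0.12 (adjusted p = 0.149) and -0.10 ± 0.13 (adjusted p = 0.585). Galnt6, Galnt12, Galnt10 and Galnt11 differed by 0.41, 0.47, 0.25 and 0.22 and did not pass. The probes of Galnt4, Galnt5 and Galnt7 were above background on no array.

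Of 4 tested genes for enzymes of O-glycan cores and branches 2 were lower, beside 16% of all genes. Gcnt1 encodes the core 2 branching enzyme, which is also strongly expressed in leukocytes. Its log2 signals were 6.01, 6.40, 5.79, 6.35 and 5.84 on the Villin-Gremlin arrays, and 6.64, 7.07 and 7.99 on the wild type arrays. All Villin-Gremlin values lay below all wild type values, and the probe was above background on 2 of 5 and 6 of 6 arrays. The difference was -1.09 ± 0.22 (adjusted p = 0.00204), 2.13-fold lower. The mean of the T cell markers differed by -1.91 log2 units (Villin-Gremlin minus wild type), and its part in the Gcnt1 difference was not tested.

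Gcnt3, the branching enzyme typical of mucin-producing epithelium, did not pass (0.23 ± 0.23, adjusted p = 0.468), with 10.59 ± 0.33 in Villin-Gremlin and 10.36 ± 0.48 in wild type villi (SD). Gcnt2, which makes the branches of the I blood group antigen, averaged 11.67 in both groups. B3gnt3, which extends core 1 chains with N-acetylglucosamine (GlcNAc), was lower by a small amount (-0.32 ± 0.12, adjusted p = 0.0451), and lost the call without any 1 of 9 arrays. The core 3 enzyme gene B3gnt6 was above background on no array.

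Chain extension, the addition of galactose, GlcNAc or GalNAc, was represented by 15 tested genes. Of these 3 were higher and 1 was lower (26.7%, beside 33.9% of all genes). B4galt5 encodes a galactosyltransferase best known for making lactosylceramide. It had log2 signals of 5.70, 6.56, 6.13, 6.62 and 6.41 on the Villin-Gremlin arrays, and 6.52, 7.65 and 7.83 on the wild type arrays. The groups overlapped only at wild type 3, the lowest of its group. The difference was -1.11 ± 0.25 (adjusted p = 0.00466), 2.16-fold lower. Its relative B4galt6, with the same substrate, differed by -0.07 ± 0.15 (adjusted p = 0.735).

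B3galt5 makes type 1 chains, the backbone of Lewis antigens in epithelia. Its log2 signals were 6.51, 6.01, 7.42, 6.47 and 8.29 on the Villin-Gremlin arrays, and 5.65, 5.83 and 6.37 on the wild type arrays. Villin-Gremlin 3 and 5 were far above the rest, and Villin-Gremlin 2 lay within the wild type range. The difference was 1.05 ± 0.34 (adjusted p = 0.0286), 2.07-fold higher, from a probe above background on 4 of 5 and 1 of 6 arrays, just inside the rule. Without Villin-Gremlin 3 and 5 it was 0.44 (adjusted p = 0.108), and leaving out Villin-Gremlin 3 or wild type 2, 3 or 5 alone also ended the call (adjusted p between 0.0514 and 0.0733).

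The other extension genes called were B3galnt2 (0.53 ± 0.18, adjusted p = 0.0317), which works on the matrix-binding glycan of dystroglycan, and B3galt6 (0.44 ± 0.16, adjusted p = 0.0463), which builds the linker of glycosaminoglycans to their proteins. B3galnt2 lost the call without Villin-Gremlin 3, Villin-Gremlin 4 or wild type 5, and B3galt6 without any 1 of 9 arrays. B4galt1, a main galactosyltransferase of N- and O-glycans, had 10.90 ± 0.38 in Villin-Gremlin and 10.60 ± 0.24 in wild type villi (SD) and did not pass (adjusted p = 0.230). B4galnt2, which makes the Sd(a) antigen of gut epithelium, had 13.09 ± 0.10 in Villin-Gremlin and 12.99 ± 0.11 in wild type villi (SD) and did not pass either (adjusted p = 0.470). Of the other 7 extension genes B3gnt9 came nearest to the threshold (0.40 ± 0.15, adjusted p = 0.0556), and B4galt3, B4galt4, B4galt7, B4galnt1, B3galt4 and B3gntl1 lay between -0.23 and 0.17.

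Neither tested fucosyltransferase passed. Fut4, an enzyme of Lewis-type fucosylation, had log2 signals of 8.96, 9.42, 9.41, 9.41 and 9.49 on the Villin-Gremlin arrays, and 7.66, 9.02 and 9.54 on the wild type arrays. The groups overlapped, with a low array in each (Villin-Gremlin 1 and wild type 1). The difference was 0.40 ± 0.27 (adjusted p = 0.291). Fut8, which adds the core fucose of N-glycans, differed by 0.18 ± 0.24 (adjusted p = 0.608). Fut2, which fucosylates the gut surface, was above background on 1 of 11 arrays, so its level was not measured here.

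The Alg genes of the N-glycan precursor were called in 1 direction. Of 11 tested Alg genes, 6 were higher in Villin-Gremlin villi and none was lower (54.5% called). Of all genes 33.9% were called, 17.9% higher and 16% lower. Among the Alg genes 10 had a positive change, beside 38 of the 58 glycosyltransferase genes and 4116 of all 8234 genes. The median log2 change of the Alg genes was 0.32. Alg8, which adds a glucose to the nearly finished precursor, had log2 signals of 6.52, 6.37, 6.91, 6.36 and 6.17 on the Villin-Gremlin arrays, and 4.98, 5.72 and 6.23 on the wild type arrays. The groups overlapped only through wild type 6 and Villin-Gremlin 5, and the probe was above background on 5 of 5 and 1 of 6 arrays. The difference was 0.83 ± 0.21 (adjusted p = 0.0073), 1.78-fold higher. Alg5, which charges dolichol with the glucose that Alg8 uses, had 11.95 ± 0.22 in Villin-Gremlin and 11.44 ± 0.20 in wild type villi (SD), a difference of 0.51 ± 0.14 (adjusted p = 0.0119). Its other probes gave 0.56 and 0.52.

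Alg14, part of the enzyme that adds the second GlcNAc, was the only Alg gene whose groups did not overlap, with 9.28 to 9.55 in Villin-Gremlin and 8.79 to 9.20 in wild type villi (0.41 ± 0.11, adjusted p = 0.0143). Alg3, which adds a mannose inside the endoplasmic reticulum, was higher by 0.69 ± 0.20 (adjusted p = 0.017), with 0.56 and 0.50 from its other probes. Alg9 and Alg1, both mannosyltransferases, were higher by 0.32 ± 0.11 and 0.40 ± 0.14 (adjusted p = 0.0347 and 0.0469). Alg2, Alg6, Alg10b, Alg11 and Alg12 lay between -0.14 and 0.24 and did not pass. The count of higher Alg genes was sensitive to the processing: 2 with median scaling, 1 without Villin-Gremlin 3 and 5, and 4 to 6 when any 1 array was left out. Alg9 lost the call without any 1 of 7 arrays and Alg1 without any 1 of 9, while the changes of all 6 genes stayed positive in every alternative run.

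Mannosidase genes changed in both directions: 1 of 8 tested genes was higher and 2 were lower, beside 17.9% and 16% of all genes. Man1a, a Golgi mannosidase that removes outer mannoses, had log2 signals of 6.00, 6.39, 5.25, 6.04 and 6.30 on the Villin-Gremlin arrays, and 6.40, 6.95 and 7.44 on the wild type arrays. The groups did not overlap, but by a narrow margin between Villin-Gremlin 2 and wild type 4. The difference was -0.94 ± 0.23 (adjusted p = 0.00652), 1.92-fold lower, with the probe above background on 3 of 5 and 6 of 6 arrays. The Golgi mannosidases II, which act after Mgat1, moved apart: Man2a2 was lower (-0.57 ± 0.19, adjusted p = 0.0332) and Man2a1 higher (0.37 ± 0.13, adjusted p = 0.0422). Man2a2 lost the call without any 1 of 6 arrays and Man2a1 without any 1 of 9. Man1b1, which trims in the endoplasmic reticulum or early Golgi, differed by -0.21 ± 0.10 (adjusted p = 0.139), and the lysosomal Man2b1 by 0.27 ± 0.14 (adjusted p = 0.145). Man2c1, which acts on free sugar chains in the cytosol, differed by 0.32 ± 0.12 and narrowly missed the threshold (adjusted p = 0.058), while Man1a2, a close relative of Man1a, and Man2b2 differed by -0.08 and 0.08.

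Of 5 tested Mgat genes, which act in the branching of N-glycans, 2 were lower, beside 16% of all genes. Mgat3 adds the bisecting GlcNAc, which sits between the arms and hinders further branching. Its log2 signals were 10.20, 10.17, 9.69, 10.39 and 9.84 on the Villin-Gremlin arrays, and 10.54, 10.77 and 11.01 on the wild type arrays. The groups did not overlap, and Villin-Gremlin 3 and 5 were the lowest. The difference was -0.72 ± 0.15 (adjusted p = 0.00253), 1.64-fold lower. Mgat1, which starts every hybrid and complex chain, was lower by one probe (-0.48 ± 0.17, adjusted p = 0.0413) while the other gave -0.01, and lost the call without any 1 of 7 arrays.

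The branch-forming Mgat4a, Mgat4b and Mgat5 did not pass. Mgat4a, with 13.22 ± 0.16 in Villin-Gremlin and 13.33 ± 0.12 in wild type villi (SD), differed by -0.11 ± 0.11. Mgat4b and Mgat5 differed by 0.57 ± 0.25 and 0.41 ± 0.24 (adjusted p = 0.0962 and 0.209).

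For dim probes the size of a change depends on how background is handled. Without background correction the log2 change was 0.61 for St3gal3, -0.43 for Gcnt1, -0.48 for B4galt5, 0.35 for Galnt3, -0.34 for Man1a and 0.26 for Alg8, all past the threshold, and 0.42 for B3galt5 (adjusted p = 0.0563). Chst4, St3gal4 and Mgat3, above background on all arrays, had 1.85, -1.12 and -0.64.

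Some genes split the Villin-Gremlin arrays. St3gal1 had log2 signals of 10.12, 10.17, 6.53, 9.90 and 6.03 on the Villin-Gremlin arrays, and 7.64, 8.58 and 10.14 on the wild type arrays. Villin-Gremlin 3 and 5 lay more than 3 log2 units below the other Villin-Gremlin arrays and below every wild type array. The difference over all arrays was -0.23 ± 0.78 (adjusted p = 0.848), and 1.29 (adjusted p = 0.05005) without those 2 arrays. B3gnt7, which extends keratan sulfate-type chains, split the other way, with 8.44, 7.91, 9.57, 8.98 and 10.33 on the Villin-Gremlin arrays, and 7.80, 8.53 and 8.98 on the wild type arrays. Villin-Gremlin 3 and 5 were the highest arrays for B3gnt7, as they were for B3galt5, and the other 3 lay within the wild type range. Its difference was 0.62 ± 0.38 (adjusted p = 0.238), and 0.01 without these 2 arrays. The splits were seen after the values were known, and nothing in the labels sets these 2 samples apart. Their arrays had the lowest median raw signals of the 11, at 166.6 and 156.7, and the highest values on the first principal component, at 40.31 and 39.63; the part of this in the splits was not tested.

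**Figure D3:**
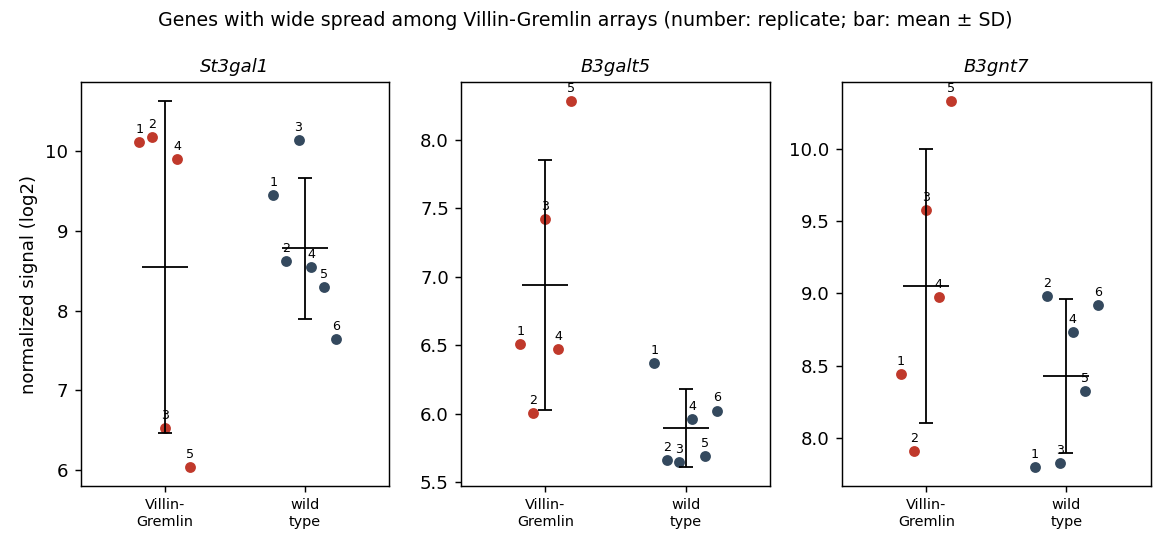
Normalized log2 signal (y axis) of St3gal1, B3galt5 and B3gnt7 on each array, Villin-Gremlin left and wild type right, each point numbered by its replicate and bars giving mean ± SD. Villin-Gremlin 3 and 5 are the lowest arrays for St3gal1, at 6.53 and 6.03, and the highest for B3galt5 and B3gnt7.

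The 59 genes outside the rule were mostly unmeasured: 48 had no array above background, 6 had 1, 1 had 2, 2 had 3 and 2 had 4. Just outside were St6gal1 and Chst8 with 4 arrays each, B3gnt5, which starts lacto-series glycolipids (3 Villin-Gremlin and 0 wild type arrays), and B4galnt3 (0 and 3). Just inside were B3galt5 with 5 arrays and Alg8 with 6. Of the 25 tested genes with several measured probes, none had probes called in opposite directions, 4 had all probes called alike (Alg5, B3galnt2, Chst4 and Galnt3), 4 had some called (Alg3, Alg9, Mgat1 and St6galnac2) and 17 had none, with p-values here adjusted over all measured probes. The 17 include B3gnt3, called lower among genes, whose probes had an adjusted p of 0.0546 and 0.113.

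The enzymes need activated donors, and genes that make or carry them were called in 12 of 26 cases (46.2%), 8 higher and 4 lower. Of all genes 33.9% were called, 17.9% higher and 16% lower. With median scaling 8 of the donor genes were called, beside 25.9% of all genes. Gmds, which takes the first step from GDP-mannose towards GDP-fucose, showed the largest change. Its log2 signals were 12.79, 12.42, 13.29, 12.16 and 12.68 on the Villin-Gremlin arrays, and 10.08, 10.47 and 11.02 on the wild type arrays. The groups lay more than 1 log2 unit apart. The difference was 2.18 ± 0.22 (adjusted p = 1.47e-05). Gfus, which completes GDP-fucose, did not pass (0.23 ± 0.11, adjusted p = 0.114). Fcsk, the kinase that salvages free fucose, was higher by 1.07 ± 0.14 (adjusted p = 8.64e-05), and Nans, the sialic acid synthase, by 0.93 ± 0.13 (adjusted p = 0.00016). Uap1l1, a relative of the enzyme that makes UDP-GlcNAc, was lower (-1.05 ± 0.13, adjusted p = 7.33e-05).

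Read by donor, the genes of GDP-fucose were higher in 3 of 5 cases and lower in 1, those of cytidine monophosphate (CMP)-sialic acid higher in 2 of 4, and those of the sulfate donor 3′-phosphoadenosine-5′-phosphosulfate (PAPS) higher in 2 of 4 and lower in 1. Gfus of GDP-fucose, Gne and Slc35a1 of CMP-sialic acid and Papss2 of PAPS did not pass. Among all genes 17.9% were higher and 16% lower, and with so few genes per donor the counts are not read further. The other members called were picked out after their values were seen. They are the Golgi carrier of GDP-fucose Slc35c1 (1.07), Cmas, which activates sialic acid (0.65), both PAPS carriers Slc35b2 and Slc35b3 (0.59 and 0.37), Gfpt1, the entry enzyme of UDP-GlcNAc synthesis (0.53), Pgm3 of the same route (-0.75), the PAPS synthase gene Papss1 (-0.70) and the fucose salvage gene Fpgt (-0.33). Gmds, Fcsk, Nans, Uap1l1, Slc35c1 and Cmas passed in all 24 alternatives, and Pgm3 in the 23 that tested it. Slc35b2 was lost with median scaling, and Gfpt1 with median scaling, with the replicate block and without Villin-Gremlin 3 and 5. Slc35b3 passed in 16 of 24 alternatives and was lost without Villin-Gremlin 2 or 3 or wild type 4 or 5. Papss1 and Fpgt passed in 12 of 24 each, and were lost without any 1 of 7 and any 1 of 8 arrays.

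**Figure D4:**
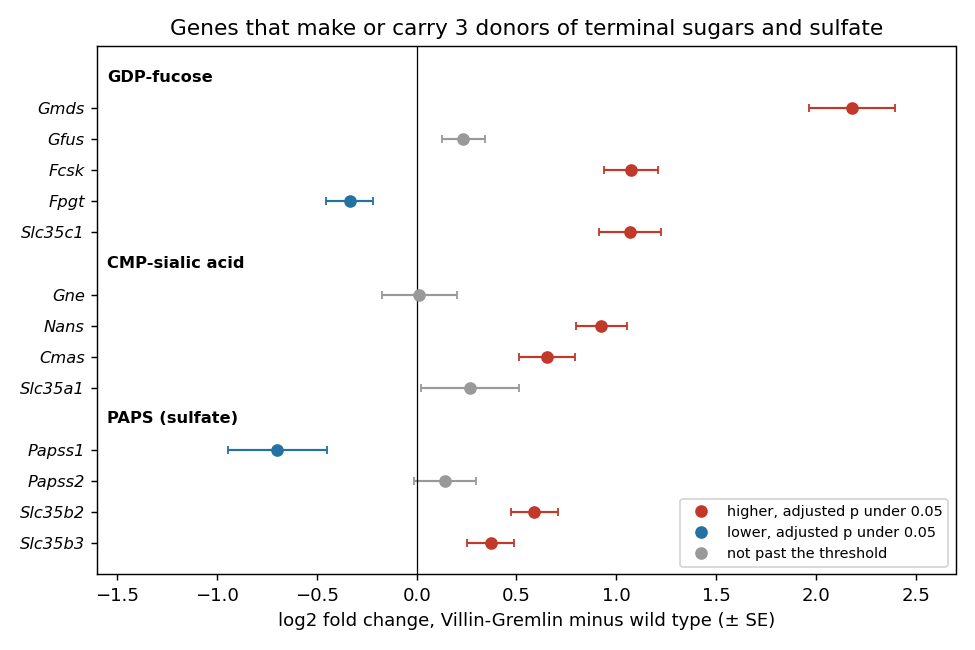
Log2 fold change (x axis, Villin-Gremlin minus wild type, bars ± SE) of 13 genes that make or carry GDP-fucose, CMP-sialic acid and PAPS. Red points are higher and blue points lower in Villin-Gremlin at an adjusted p under 0.05, and grey points did not pass; Gmds, at 2.18, lies farthest from 0.

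Other steps of the pathway were read for context. The list of the oligosaccharyltransferase, which moves the precursor onto proteins, and of glycoprotein quality control held 16 tested genes. It also took in Dpagt1, Dpm2 and Dpm3, which act in making the precursor and did not pass (0.21, 0.12 and 0.17). Of the 16 genes 3 were higher and 1 was lower (25%, beside 33.9% of all genes). Higher were the transferase subunits Krtcap2 (0.66 ± 0.13, adjusted p = 0.00191) and Rpn2 (0.43 ± 0.14, adjusted p = 0.0321) and the glucosidase gene Mogs (0.40 ± 0.12, adjusted p = 0.0213). Edem1, which marks misfolded glycoproteins for disposal, was lower (-0.56 ± 0.14, adjusted p = 0.00841). Rpn2 lost the call without Villin-Gremlin 1, 2 or 3 or wild type 3, and Mogs without Villin-Gremlin 2. With median scaling Krtcap2, Rpn2 and Mogs were lost, and without Villin-Gremlin 3 and 5 Rpn2, Mogs and Edem1.

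Of 10 other tested Golgi glycosyltransferase genes, 4 were lower and 1 was higher, beside 16% and 17.9% of all genes. Ugcg, which makes glucosylceramide, the substrate of B4galt5, was lower (-1.14 ± 0.13, adjusted p = 4.14e-05), with 11.89 to 12.28 in Villin-Gremlin and 12.92 to 13.47 in wild type villi. St8sia4, a polysialyltransferase, was lower (-1.61 ± 0.19, adjusted p = 5.44e-05). Its probe was above background on 3 of 5 Villin-Gremlin and 6 of 6 wild type arrays, and its change lay between -1.73 and -0.70 over the alternatives. Mfng, which modifies Notch receptors, was above background on no Villin-Gremlin array and is therefore given as a bound, at least 1.37-fold lower (adjusted p = 0.00151; measured means 5.23 in Villin-Gremlin and 6.48 in wild type villi). Ext2, of heparan sulfate synthesis, was higher (0.50 ± 0.14, adjusted p = 0.017) except with median scaling, where it did not pass. C1galt1 and its chaperone C1galt1c1, which together make core 1, differed by 0.27 ± 0.27 and 0.28 ± 0.15 and did not pass (adjusted p = 0.476 and 0.155).

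Mucins and other goblet cell products, which carry O-glycans or are secreted with them, were called in 33.3% of cases. That is close to the 33.9% of all genes tested. Of 12 tested genes 3 were higher and 1 was lower, and their mean log2 signal lay between 11.41 and 11.60 on Villin-Gremlin arrays and between 11.31 and 11.59 on wild type arrays. Muc2, the main secreted mucin, had 14.01 ± 0.33 in Villin-Gremlin and 14.42 ± 0.44 in wild type villi (SD) and did not pass (adjusted p = 0.161). The goblet cell product Spink4 was higher by 1.42 ± 0.14 (adjusted p = 1.67e-05), Agr2, a mucin-folding protein, by 0.57 ± 0.17 (adjusted p = 0.0218) and Klk1 by 0.43 ± 0.15 (adjusted p = 0.0412), while Clca1 was lower (-0.59 ± 0.17, adjusted p = 0.0187). Agr2 lost the call without Villin-Gremlin 1, 3 or 4, Clca1 without Villin-Gremlin 3, and Klk1 without any 1 of 7 arrays.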

How the data were processed

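Signal intensity per bead type and a detection p-value were deposited by the authors for 45281 probes on 11 arrays; per the file headers these intensities are averages on a linear scale, with no background subtraction in the values. The authors' log2 values of the same arrays were deposited as well, by a normalization not given in the sources used here. Per the labels' protocols, RNA was cleaned with a Qiagen kit and labelled as biotinylated cRNA with an Ambion kit. Probes were named from the platform's annotation table: 34885 had 1 symbol, 18 several and 10378 none.

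From these values, intensities were background-corrected and quantile-normalized with neqc of limma 3.58.1 (R 4.3.3, offset 16). Probes with a detection p under 0.01 on 5 or more of 11 arrays were kept, and the kept probe with the highest mean stood for its gene. Changes are log2 differences, Villin-Gremlin minus wild type, from lmFit and eBayes over 8234 genes with Benjamini-Hochberg adjustment and a threshold of 0.05. The fit was tested on simulated data. The number of arrays limits the precision. Equal group sizes are named in the series' design; 5 Villin-Gremlin and 6 wild type arrays were analysed here.

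The genes, the role classes and the other lists were chosen with earlier results of these data known. Single Villin-Gremlin values with the lowest, median and highest of the 6 wild type arrays are given for called genes with a log2 change of at least 1 in size and for the gene with the smallest p of each role class; of each other list, up to 4 called genes with the smallest p are named. The alternatives were other background, offset, scaling, filter, probe and variance settings, the authors' log2 values, a replicate block, the array's place in the signal table, and arrays left out. Replicate numbers are those of the sample titles, and arrays that share one were not treated as pairs. The array names in the signal table number the Villin-Gremlin samples differently, and a pairing by those names was not looked at.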

Additional observations from a re-analysis of the deposited data

Results flagged for a closer look

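In 8 of the 58 genes, 1 array lay far from the rest of its group, by a gap to the nearest array that was large for the group's range. Chance alone flags about 1 in 20 groups, 116 groups were looked at, and 9 values stood out. In Villin-Gremlin villi these were Mgat4b at 11.63 on replicate 5 (the others 10.19 to 10.60), B3gnt9 at 7.75 on replicate 5 (others 8.22 to 8.24), B4galt3 at 10.81 on replicate 2 (others 10.34 to 10.47) and Fut4 at 8.96 on replicate 1 (others 9.41 to 9.49). In wild type villi they were Fut4 at 7.66 on replicate 1 (others 8.99 to 9.54), Fut8 at 9.65 on replicate 1 (others 10.37 to 10.60), Alg6 at 10.28 on replicate 1 (others 10.91 to 11.27), B4galt7 at 7.35 on replicate 2 (others 6.62 to 6.89) and Galnt3 at 6.54 on replicate 2 (others 5.79 to 6.06). Of these genes only Galnt3 was called.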

How the results depend on the processing

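The balance of 14 higher and 8 lower glycosyltransferase genes turned under 2 alternatives. With median scaling 13 were called (6 higher and 7 lower, beside 919 and 1217 of all genes), 2 Alg genes were higher and 16 genes of the other lists were called. The median change was then 0.0625, beside -0.0933 over all genes. Without a detection filter the median was 0.0345, and with probes above background on all arrays 4 genes were lower. Without Villin-Gremlin 3 and 5, an alternative chosen after seeing the data, 12 were called (5 higher, 7 lower) and 1 Alg gene was higher. These 12 are 20.7%, beside 28% of all genes. Leaving out 1 array at a time gave 15 to 19 called genes, 8 to 13 higher and 5 to 7 lower, 4 to 6 higher Alg genes, 8 role classes with a call, 19 to 24 called genes of the other lists, 9 to 12 of the donor genes, a median of 0.1349 to 0.2517 and 2381 to 2784 called genes in all. The 8 higher came without Villin-Gremlin 3, and the 5 lower without Villin-Gremlin 1, wild type 1 or wild type 4. With the replicate number of the sample titles as a block 13 were called, 8 higher and 5 lower. Arrays with the same title number correlated between -0.198 and 0.111, over 0.1 in 1 of 5 pairs. Of the Villin-Gremlin arrays 1 of 5 was closest to its own number. The differing numbers in the array names were not used as a block. Over single genes and alternatives, 1192 values kept their direction and side of the threshold, 51 changed sign with neither value past it, 125 lost the call and 15 gained it. The cause was not tested. Slide as a block was not run, as the headers name no slide. Probes near background limit 9 of the genes, whose changes shrink without background correction.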
